A study of Homo sapiens with 4 samples.

Results

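The intervals described here lie at SOX2, H2BC11, HBB and FOXA1, 4 human genes that were chosen by the total signal of intervals seen on them and by how those intervals sat on coding sequence. Members were all peak intervals that overlapped a gene body or the 5 kb on either side of it, and 6 of 58827 distinct intervals qualified. SOX2 held 1 interval, H2BC11 held 2, HBB held 2 and FOXA1 held 1. The proteins studied were V5-tagged SOX2 and its DNA-binding domain (SOX2-DBD), each expressed ectopically for 48 h in BJ fibroblasts, an established line of human foreskin fibroblasts. Chromatin under the V5 tag was mapped by CUT&RUN, in which an antibody brings a nuclease to the tagged protein and the released DNA is sequenced. There were 2 samples per group, every group carried an introduced V5-tagged protein, and no group without one was analysed here. The promoter of the expression construct, the extent of the DNA-binding domain in it and any other factor it carried are not given in the sources used here. The peak lists analysed were attached to replicate 1 of each group, so no value below has an error between replicates, and no test was made.

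The SOX2 list had 57907 intervals and the SOX2-DBD list 15220. Sequencing depth is unknown, and peak lists hold no expression values against which the cell type could be checked. Total signal is the authors' value summed over an interval and maximum signal is its highest point, with a normalization that is not stated, so both were ranked within a list only. The 14300 intervals present in both lists carried the same values in each, and the group in which those values were measured is not stated. In 23.1% of these shared intervals the total exceeded the maximum multiplied by the width, so that their width and signal described different stretches. All 6 members had a total within that bound and a maximum inside the interval.

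SOX2 is a transcription factor of the SOX family that keeps embryonic and neural stem cells undifferentiated and binds DNA through an HMG box. FOXA1 is a forkhead pioneer factor of endoderm, breast and prostate. H2BC11 encodes a replication-dependent core histone H2B, and HBB encodes the beta chain of adult haemoglobin, a gene of red blood cell precursors. When a coding sequence is cloned into an expression construct, introns and flanking sequence are usually left out. Reads from such DNA align to the chromosomal gene, and a peak list does not tell those sources apart. By design, full SOX2 was introduced in the SOX2 group and its DNA-binding domain in the SOX2-DBD group, while for H2BC11, HBB and FOXA1 the labels name no introduced copy.

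The sequences below are shown because interval edges lay within 2 bp of coding boundaries at both ends of SOX2 and at the coding end of H2BC11. The edges at HBB are shown for contrast, 1 of them 18 bp before the end of exon 2 and the others inside intron 2. They were read from GRCh37 (hg19) in the direction of transcription. Capitals mark the bases inside the interval.
SOX2 coding start, chr3:181430142-181430171, plus strand: cgcccgcatGTACAACATGATGGAGACGGA
SOX2 coding end, chr3:181431079-181431108, plus strand: ACACTGCCCCTCTCACACATGTGAgggccg
H2BC11 coding end, chr6:27100143-27100172, minus strand: ACCAAGTACACCAGCGCTAAGTaaacagtg
HBB end of exon 2, chr11:5247802-5247831, minus strand: gcacgtGGATCCTGAGAACTTCAGGGTGAG
HBB before the gap in intron 2, chr11:5247708-5247737, minus strand: GGGATAAGTAACAGGGTACAgtttagaatg
HBB after the gap in intron 2, chr11:5247329-5247358, minus strand: tttaatatgtGTACACATATTGACCAAATC

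The SOX2 interval coincided with the coding sequence of the gene. It lay at chr3:181430151-181431102 (hg19), 952 bp wide, and covered 99.8% of the 954 coding bases of the principal (MANE Select) transcript, which has 1 exon. Its upstream edge lay 2 bp after the first base of the start codon, and its downstream edge was the last base of the stop codon. It contained 0 bp of untranslated sequence and 0 bp of the promoter window, taken as 250 bp before to 50 bp after the transcription start. Nothing else was listed nearby, since the neighbouring intervals lay 735 kb and 1022 kb away. The interval is therefore isolated at this locus as well as bounded by the coding sequence.

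The SOX2 interval was in both lists, with a total signal of 95465 and a maximum of 220. The total was 40.2 times the median of the SOX2 list, where it ranked 4, and 33.5 times the median of the SOX2-DBD list, where it ranked 3. By maximum signal it ranked 3 and 2. The highest point covered bases 241 to 245 of the coding sequence. The HMG box is the part that SOX proteins share, and the longest ungapped stretch in an alignment of SOX2 with SOX9 (63.2% identical residues) was encoded by bases 118 to 345. The maximum lay inside that stretch. The 609 coding bases after it, which follow the shared part, were also inside the interval, in the SOX2-DBD list as in the SOX2 list. Since shared intervals hold 1 set of values, the signal over those 609 bases cannot be assigned to either protein.

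**Figure D1:**
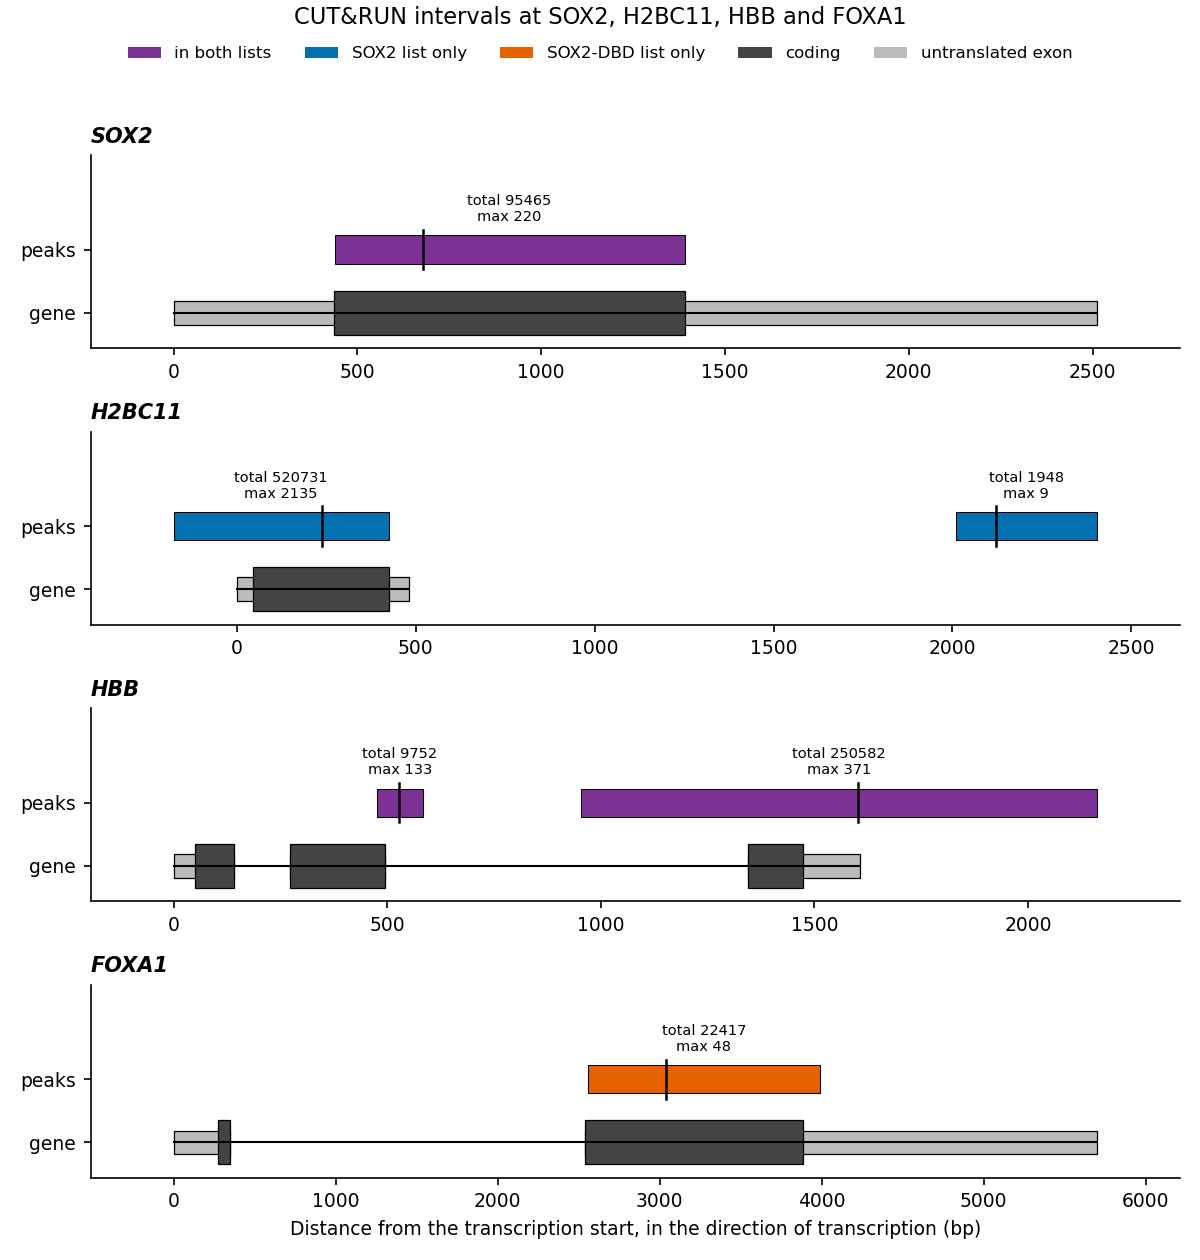
Intervals at each gene, drawn to scale against the principal transcript, with distance from the transcription start in bp on the horizontal axis. Dark boxes are coding, pale boxes are untranslated exon, coloured bars are intervals by list and the black tick is the point of maximum signal. The SOX2 bar spans 952 of the 954 coding bases, whereas the larger HBB bar runs 554 bp past the transcript end.

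H2BC11 carried the highest signal of the SOX2 list. Its larger interval, at chr6:27100151-27100751, was 601 bp wide, with a total signal of 520731 and a maximum of 2135. These were 219 and 213.5 times the medians of the list, and both ranked 1. The interval was absent from the SOX2-DBD list. At the coding end it stopped 2 bp short of the last base of the stop codon, leaving the final 2 coding bases and the 3′ untranslated part outside. It covered 379 of 381 coding bases (99.5%), all 45 bp of the 5′ untranslated part and 177 bp upstream of the transcription start. The maximum was a single base, 193 bp after the first base of the start codon. Like SOX2, H2BC11 was thus covered to within 2 bp of the end of its coding sequence, but unlike SOX2 its interval ran on past the start codon, by 222 bp.

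The upstream stretch is the promoter side of H2BC11, which faces H2AC11, a histone H2A gene whose start lies 71 bp beyond the interval. The interval ended within the promoter window, and the motifs searched on either strand of its 177 upstream bases were the TATA box TATAAA, the CCAAT box CCAAT and the octamer ATTTGCAT, an element known from histone H2B promoters. The 30 bases that held the octamer and the TATA box are shown, with the matches in capitals.
H2BC11 upstream of its start, chr6:27100594-27100623, minus strand: ttATTTGCATaagcgattctaTATAAAagc
The 177 bases held 1 TATA box starting 28 bp before the transcription start, 1 octamer starting 47 bp before it and 3 CCAAT boxes, and none of these matches overlapped. In the same 177 bp of 35116 RefSeq promoters (GRCh38.p14), 7.72% held TATAAA, 26.0% held CCAAT and 1.14% held ATTTGCAT. The interval covered 227 bp of the promoter window of H2BC11, the only member to enter such a window.

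The smaller H2BC11 interval, at chr6:27098171-27098565, was of ordinary size for the list. It was SOX2-only, 395 bp wide, with a total signal of 1948 and a maximum of 9, or 0.82 and 0.90 times the list medians. It lay 1530 bp past the end of the principal transcript, inside the longer gene model, and held no coding bases. In the ranking by total signal it stood at 37781. The rule therefore took in 1 interval that none of the features of the other members described.

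HBB held 2 intervals, both shared, with a gap between them inside intron 2. The larger, at chr11:5246140-5247348, was 1209 bp wide, with a total signal of 250582 and a maximum of 371. It ranked 2 in the SOX2 list and 1 in the SOX2-DBD list by either measure, at 106 and 88.0 times the median total. It covered all 263 bp of exon 3, of which 129 bp were coding, then 392 bp of intron 2 and 554 bp beyond the transcript end. Its maximum lay 5 bp before the annotated transcript end, the place where the messenger RNA is cut and polyadenylated. Only 10.7% of this interval was coding, so it followed the 3′ part of the gene rather than the coding sequence.

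The smaller HBB interval, at chr11:5247718-5247825, was 108 bp wide, with a total signal of 9752 and a maximum of 133. By total signal it ranked 196 in the SOX2 list and 137 in the SOX2-DBD list, but by maximum it ranked 5 and 4. It started inside exon 2, 18 bp before the last base of that exon, and covered 19 coding bases and the following 89 bp of intron 2. The gap of 369 bp before the larger interval resumed was wholly intronic, within an intron of 850 bp. Exon 1, intron 1 and the other 204 bp of exon 2 were in neither interval. The bases at the edges of the gap, printed above, were alike: the 5 letters GTACA ended the one interval and began the other. Each HBB interval occupied 2 rows of the same position in each list, and the SOX2, H2BC11 and FOXA1 intervals occupied 1. Rows were matched by position only, so their other columns were not compared. The share of all intervals with repeated rows is not given here, so this difference cannot be called unusual.

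FOXA1 was represented in the SOX2-DBD list alone. Its interval, at chr14:38060463-38061898, was 1436 bp wide, with a total signal of 22417 and a maximum of 48. These were 7.87 and 4.36 times the list medians and ranked 6 and 7. Most intervals of that list are shared, with values measured in a group that is not stated. Among the 920 SOX2-DBD-only intervals the median total was higher, at 4204.5, and the median maximum was 11. Both FOXA1 values were the highest of those 920. The FOXA1 interval lay wholly in exon 2 and began 18 bp after the first base of that exon. It ended 107 bp after the stop codon, in the untranslated part, which continued for a further 1706 bp. In all, 92.5% of the interval was coding and 93.7% of the 1419 coding bases were covered. The 72 coding bases of exon 1, which lie across an intron of 2189 bp, had no interval. In the SOX2 list the nearest intervals lay 41.9 kb and 105 kb away, with total signals of 1290 and 2659.

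**Figure D2:**
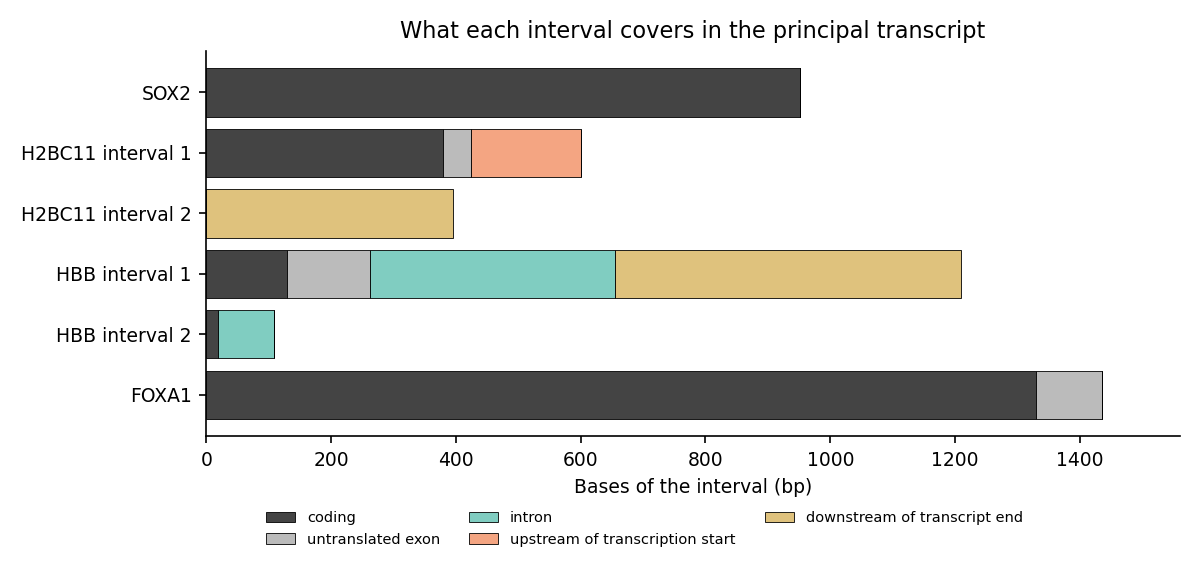
Bases of each interval by what they cover in the principal transcript of its gene, as stacked bars in bp. The SOX2 bar is wholly coding and the FOXA1 bar is 92.5% coding, while HBB interval 1 is mainly intron and sequence past the transcript end.

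Signal chose these genes, so the following counts describe them and support nothing. A total signal of at least 10 times the list median was reached by 3 of the 5 member intervals in the SOX2 list, against 0.0104% of all its intervals. In the SOX2-DBD list 2 of 4 members reached it, against 0.0197%. Members were thus 3 of the 6 intervals past that fold in the SOX2 list and 2 of the 3 in the SOX2-DBD list, and intervals that are no members also held high ranks. For maximum signal at the same fold, the counts were 4 of 5 against 0.0104% and 3 of 4 against 0.0263%. Mean signal per base was 866 in the larger H2BC11 interval, 207 and 90.3 in the HBB intervals, 100.3 in SOX2, 15.6 in FOXA1 and 4.93 in the smaller H2BC11 interval.

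**Figure D3:**
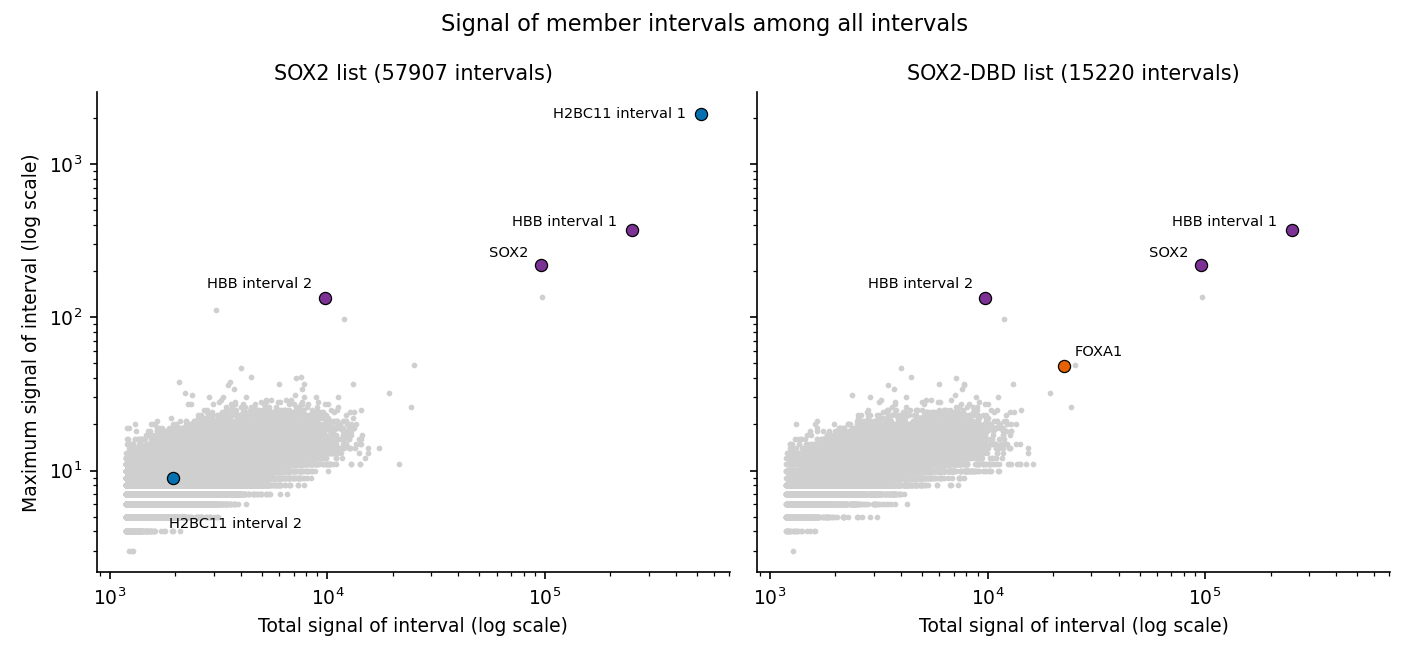
Maximum against total signal of every interval, both on log axes, for the SOX2 list (left) and the SOX2-DBD list (right). Grey points are all intervals and named points are members, coloured by list. H2BC11 interval 1, at 520731 and 2135, stands at the upper right, and H2BC11 interval 2, at 1948 and 9, lies inside the bulk.

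Coding position was also used to choose the genes, so the members' counts by coding edge and coding share are likewise a description. Both edges lay within 50 bp of coding-segment boundaries of the same gene in 46 SOX2 intervals (0.0794%, Wilson 95% confidence interval 0.0596 to 0.106, counting error only) and in 13 SOX2-DBD intervals (0.0854%, 0.0499 to 0.146). SOX2 was the only member among them, as 1 of 5 and 1 of 4. The larger H2BC11 interval and FOXA1 met a coding boundary closely at one edge, at 2 bp and 18 bp, and missed at the other, by 222 bp and 107 bp. The smaller HBB interval did so too, at 18 bp and 89 bp from the end of exon 2. At least 50% of the length was coding in 0.262% of SOX2 and 0.302% of SOX2-DBD intervals. Of the members, 2 of 5 in the SOX2 list passed that limit (SOX2 and the larger H2BC11 interval) and 2 of 4 in the SOX2-DBD list (SOX2 and FOXA1).

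Other mostly coding intervals are given by their values, and since high signal on coding sequence chose the member genes, their lower signal follows from that choice. After the members, the highest totals among them in the SOX2 list belonged to ZNF582 (8468, maximum 14), ZNF92 (7161, maximum 12), AKAP9 (6062, maximum 9), ANKRD26 (6028, maximum 11) and COG3 (5974, maximum 14). In the SOX2-DBD list, ATAD2B held a SOX2-DBD-only interval with a total of 5076 and a maximum of 14. Among intervals with both edges at coding boundaries, COG3 came next after SOX2 in both lists, with an interval of 140 bp. It was followed in the SOX2 list by TASOR2 (total 5790, maximum 20), RALGAPA1 (5553, maximum 9), RIF1 (5005, maximum 12) and PSMA5 (4784, maximum 10), whose intervals were 0.28% to 21.3% coding. In the SOX2-DBD list such intervals also lay at DNTTIP2 (total 3897, maximum 9), CDC27 (3249, maximum 29) and SGO1 (3184, maximum 9), all shared. The CDC27 interval, of 207 bp, was 100% coding with both edges within 5 bp of a coding boundary, and the SGO1 interval was 64.4% coding with both edges within 7 bp. Edges this close to coding boundaries were therefore not confined to SOX2.

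Some genes were listed because their parts or coding sequences are often used in vectors. Of these, LIN28A (total 2846, maximum 11) and PGK1 (total 1270, maximum 6) had a SOX2-only interval with no coding bases. EEF1A1, POU5F1 and KLF4 had none in either list.

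Genes related to the members had intervals with total signals of at most 4976, or none. Of 20 other genes with an annotated symbol starting with H2B, 6 had a SOX2 interval within 5 kb and 4 a SOX2-DBD interval. The highest total at such a gene ranged from 1352 to 4976, and 0 had coding bases inside an interval. The share of all genes with an interval within 5 kb was not computed, so these counts cannot be called low or high. The sequence of the larger H2BC11 interval aligned to 25 other places in the genome at 80% identity or more over at least 100 bp. Of these, 15 lay on genes with such a symbol, the most alike being H2BC12L at 92.1%. Several of the others had no gene named there, and whether they are H2B copies was not examined. None of the 25 overlapped an interval of either list. Intervals at least 50% coding were 0.262% of the SOX2 list and 0.302% of the SOX2-DBD list. The share of all coding stretches that overlap an interval was not computed, so such absences set no member apart. SOX1 and SOX3 had no interval, nor did FOXA2 and FOXA3. The SOX2 sequence aligned to 4 other places, among them SOX1, SOX14 and SOX21, at 83.0% to 87.2% identity, and the FOXA1 sequence to 3, among them FOXA3 at 88.0%, all without an interval. Among 6 other globin genes, the delta gene HBD, with 139 bp alike at 88.5%, had no interval. HBG2 and HBE1 had intervals only in long gene models that overlap each other, the highest total being 4139.

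All member intervals except the smaller H2BC11 interval had a GC content above their list medians. Coding position helped choose these genes, and its part in their GC content was not tested. GC content was 66.0% in SOX2, 65.4% in FOXA1, 53.1% in the larger H2BC11 interval, 43.5% and 40.0% in the smaller and larger HBB intervals and 33.7% in the smaller H2BC11 interval. The list medians were 34.1% for SOX2 and 35.4% for SOX2-DBD. At or above the SOX2 value lay 0.0121% of SOX2-list intervals, and at or above the FOXA1 value 0.0657% of SOX2-DBD intervals. For the larger HBB interval these shares were 6.51% of the SOX2 list and 16.5% of the SOX2-DBD list. The smaller H2BC11 interval again sat near the centre, with 54.9% at or above it.

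**Figure D4:**
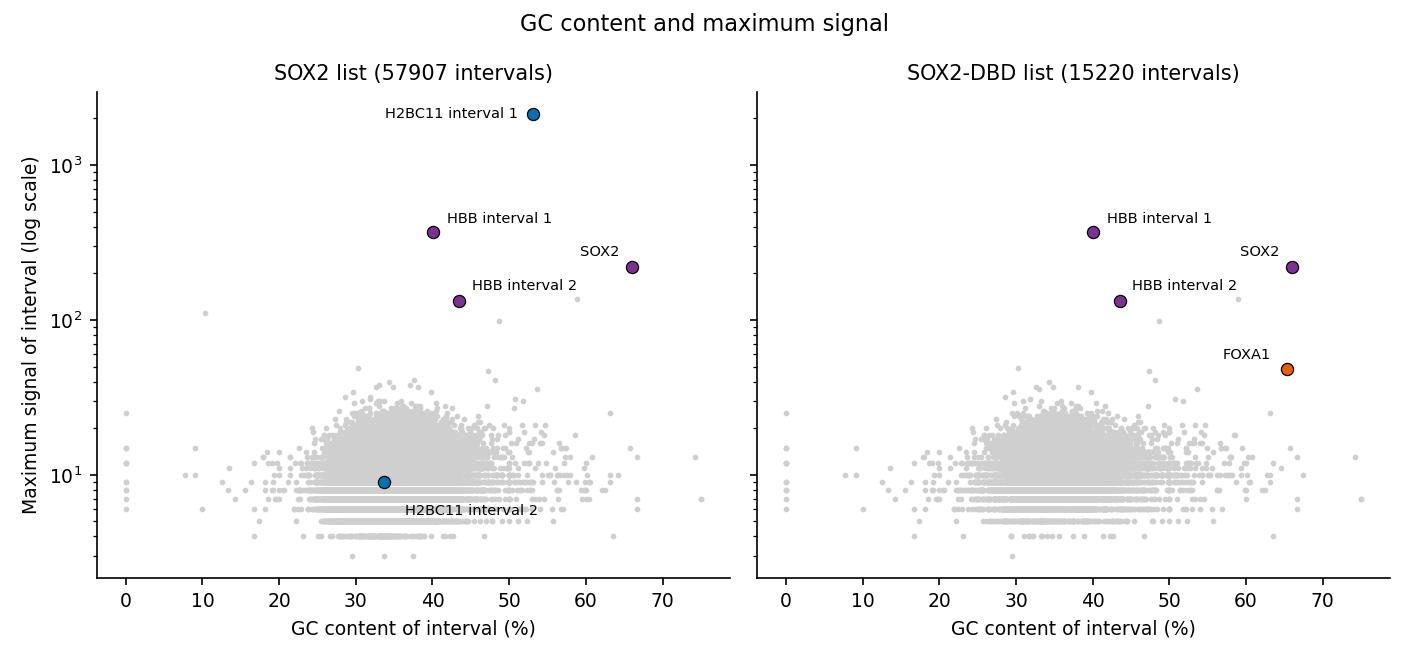
GC content (percent) against maximum signal (log axis) of every interval, SOX2 list on the left and SOX2-DBD list on the right, with members coloured by list. SOX2 and FOXA1 lie at 66.0% and 65.4% GC, far to the right of the medians of 34.1% and 35.4%.

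The SOX core motif, taken as ACAAAG or ACAATG on either strand, had no match in the SOX2, larger H2BC11, smaller HBB and FOXA1 intervals. For windows of 952 bp at the centres of all SOX2 intervals, 90.4% held at least 1 match, and for 601 bp, 81.6% did. For windows of 1436 bp in the SOX2-DBD list the share was 95.5%, and for 108 bp in the SOX2 list it was 28.8%. The larger HBB interval held 2 matches, against a median of 3 in windows of its 1209 bp. The smaller H2BC11 interval held 2, against a median of 1 in windows of its 395 bp. No match says only that these letters were not in the interval, and base composition moves with this count, since the intervals of highest GC content were among those with none. Its part in the count was not tested.

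A SOX2 list named as down-sampled, which gives positions without signal, held 4 of the 5 SOX2-list members at the same positions, namely SOX2, both HBB intervals and the smaller H2BC11 interval. Of all SOX2-list intervals, 16.8% were there at the same position and 64.3% overlapped an interval there by at least 1 bp. The same-position share was 36.1% for shared intervals (members 3 of 3) and 10.5% for SOX2-only intervals (members 1 of 2). The larger H2BC11 interval, the one with the highest signal of the full list, overlapped none there. FOXA1 was in neither SOX2 list. The seventh column of the SOX2 list, whose meaning is not stated, held 1 for the larger HBB interval and 0 for SOX2 and the smaller HBB interval. For H2BC11, whose intervals were SOX2-only, it was empty.

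The part played by introduced DNA in these intervals was not tested, and no library without a V5-tagged protein was analysed here.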

How the data were processed

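CUT&RUN peak lists of replicate 1 of each group were analysed. Files of replicate 2 were not analysed here. Per the submitters' processing notes, which give no role or order, Bowtie2 2.3.4.1, SAMtools, bedtools 2.27.1, SEACR 1.3 and deepTools 3.5.0 were used with hg19. The deposited total and maximum signal are whole numbers per interval, in the column order of SEACR. The deposited seventh column is a score of unstated meaning. Threshold, filters and pooling are not given in the sources used here.

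Rows with the same chromosome, start and end were counted once, with the values of the first. Genes came from GENCODE release 44 mapped to GRCh37, with MANE Select transcripts and the stop codon counted as coding, and 0 intervals passed a chromosome end. Overlap was counted from 1 bp. Distances run from an interval's last base to a boundary's base. Related placements were sought with blastn 2.17.0. The alignment of SOX2 with SOX9 used Biopython 1.88 with BLOSUM62. Other work used python 3.11.15, pandas 2.3.3, scipy 1.17.1, pyfaidx 0.9.0.4, samtools 1.23.1 and matplotlib 3.10.9.

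The members and gene lists were chosen with earlier results of these data known. Named genes were the members, listed related and vector genes, and the 5 intervals of highest total signal that were mostly coding or had both edges at coding boundaries. Some items are not reported here. As a check of the code only, the edge search recovered 200 of 200 pairs planted within its tolerance in simulated intervals. Working code must find such pairs, so this result says nothing about the peak lists.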

Additional observations from a re-analysis of the deposited data

How the results depend on the processing

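A flank of 50 kb raised the intervals at members from 5 to 13 in the SOX2 list. Edge tolerances of 10 and 100 bp gave 0.00863% and 0.245% of SOX2 intervals with both edges at coding boundaries, and 0.0197% and 0.302% of SOX2-DBD intervals, by construction. Requiring 80% coding length gave 0.138% and 0.151%. Of 33 further placements in all, 7 had 90% identity. By total signal 3 members were among the 10 highest of each list, but 0 by mean signal per base, where shared intervals of a few bases ranked first. Leaving out intervals whose total exceeded maximum times width, chosen after seeing the data, restored 4 and 3. In all, 23 of 33 alternatives kept the value within its limits. No paired analysis was possible because only 1 list with signal per group was analysed, attached to replicate 1. For the same reason no replicate could be left out. Unknown depth limits any comparison between the lists.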

Other observations

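At the HBB edges, some short palindromes were noticed after the sequences were seen. The 5′ edge of the smaller HBB interval began with GGATCC, the BamHI recognition sequence. In the SOX2 list 1 of 115814 edges had GGATCC as its first bases inward, namely this one. The 3′ edge of the larger HBB interval, at chr11:5246130-5246159 on the minus strand, read ACTCACAGTGACCCGGAATCtgcagtgcta, with capitals inside the interval, so that the edge fell within CTGCAG, the PstI recognition sequence. CTGCAG occurred in the 12 bases centred on 0.132% of SOX2-list edges and GGATCC on 0.0250%. GTAC occurred at 2.09% of edges, at both sides of the HBB gap and at the coding start of SOX2. These are matches of letters in the reference genome, and how they relate to the DNA that was sequenced was not tested.

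Outside protein-coding genes, the highest maxima were 111 at chr4:116286111-116286139, a SOX2-only interval of 29 bp, and 98 at chr10:98561329-98561554, a shared interval of 226 bp. Intervals on protein-coding genes that were no members reached higher values and are not named here. By total signal such an interval stood above SOX2 in both lists, and by maximum signal such an interval stood above the smaller HBB interval in both.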
